A study of Mus musculus with 6 samples.

Results

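The inflammatory myeloid cells of H22 liver tumors were examined here, a cell class named by the study's annotators and chosen by that deposited label alone. The class held 6307 of the 58794 annotated cells (10.7%), all from 1 of the deposited clusters (cluster 0), and every one of the 6 mice contributed cells. It was set beside the 6260 cells annotated as monocytes, which pool 3 deposited clusters (11, 12 and 13), and the 175 annotated as neutrophils (cluster 25). Single-cell RNA sequencing (scRNA-seq, 10x Genomics) had been run on liver tumors, 1 library per mouse, with 3 mice in the control and 3 in the stress group. All 6 were young adult male wild-type C57BL/6J mice that carried H22 cells, a murine hepatocellular carcinoma (HCC) line, implanted into the liver after passage as ascites in other mice. Stress mice went through chronic unpredictable mild stress (CUMS), a course of daily changing stressors, and control mice received the same tumor cells without stressors. By the study's account, the tumor cells were implanted once the stress course and its behavioral tests were over. The tumors are therefore 1 transplanted line in an intact host, not HCC that arose in a damaged liver. The matrix headers name Cell Ranger 9.0.0 for the control libraries and Cell Ranger 7.1.0 for the stress libraries, so what follows from that version and what follows from stress cannot be told apart here.

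Myeloid cells of a tumor include neutrophils and monocytes, which arrive from blood, and macrophages and dendritic cells, which largely derive from monocytes or their precursors. Neutrophils make their granule proteins in sequence while still in bone marrow, first the primary granule enzymes and later the secondary granule proteins such as lactoferrin and cathelicidin, and mature neutrophils have mostly silenced these genes. Mature neutrophils carry the receptors for G-CSF and for CXC chemokines, are rich in the calcium-binding proteins S100a8 and S100a9, hold little RNA, and can switch on cytokine and chemokine genes in inflamed tissue.

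Each cell was measured by unique molecular identifiers (UMIs), tags that count captured RNA molecules once. Total UMIs ran from 184798748 to 187728350 in the control libraries and from 149558935 to 158405366 in the stress libraries. Any pair of libraries shared between 13 and 40 cell barcodes, and 1 barcode of the class occurred in more than 1 mouse. Of the 6307 cells, 138 (2.19%) were called doublets by Scrublet, a program that simulates mixed cells, in a run made here on the annotated cells of each library. The study's methods state that doublets had been removed with the same program, so these are calls among cells kept by the annotators. A further measure was needed because a few cells were far deeper than the rest. The 178 cells (2.82%) with over 3 times the median UMI count of the class in their mouse held 23.0% of its UMIs, and 111 of them were called doublets. These deep cells held 63.2%, 23.6% and 17.1% of the class's UMIs in control mice 1 to 3, and 40.8%, 31.4% and 7.32% in stress mice 1 to 3. Summed tumor cell markers (8 genes, of which H19 had no UMI) ran from 155 to 560 CPM (counts scaled to the same total in every mouse) in control mice and from 73.3 to 295 CPM in stress mice, and without deep cells from 40.1 to 66.6 and from 50 to 66.1 CPM. The stress comparison was therefore run with all cells and without the deep cells. Levels and shares set beside monocytes and neutrophils are from all cells unless stated.

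Inflammatory myeloid cells were common in both groups and varied widely between mice. They made up 5.03%, 11.2% and 18.5% of the annotated cells in control mice 1 to 3 (mean 11.6% ± 6.72, SD, n = 3), from 529, 1316 and 1708 cells. The shares were 4.66%, 4.57% and 18.8% in stress mice 1 to 3 (9.33% ± 8.17, n = 3), from 337, 431 and 1986 cells. Mouse 3 was the highest in both groups and the groups overlapped. The difference, -2.23 percentage points, was smaller than the spread between mice (two-sided exact permutation test, p = 0.6, where 3 against 3 mice cannot go below 0.1). Among the myeloid classes only, the shares were 50.5%, 42.3% and 66.3% in control mice, against 33.9%, 16% and 47.1% in stress mice, a difference of -20.7 points (exact permutation test, p = 0.2).

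These cells were shallow. Their median was 1547 UMIs and 688 genes per cell, against 5291 UMIs and 1987 genes in monocytes and 5394 UMIs and 1430 genes in neutrophils. Mitochondrial transcripts took a median of 0.356% of UMIs, against 2.08% in monocytes and 0.798% in neutrophils. By mouse, the median UMI count was 1156, 1280.5 and 1517.5 in control mice, against 1519, 1663 and 1988 in stress mice. Every stress mouse lay above every control mouse, though control mouse 3 and stress mouse 1 nearly met (difference 405 UMIs, exact permutation test, p = 0.1, the smallest this design gives), and the groups overlapped once deep cells were left out (difference 413 UMIs, p = 0.2 by the same exact test). Monocytes of the same mice had medians from 4222 to 5447 UMIs in control and from 4789 to 6646 in stress mice. Divided by those, the depth of the class was 0.274, 0.271 and 0.279 in control mice, against 0.258, 0.347 and 0.299 in stress mice, which overlapped (difference 0.0271, exact permutation test, p = 0.4).

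**Figure D1:**
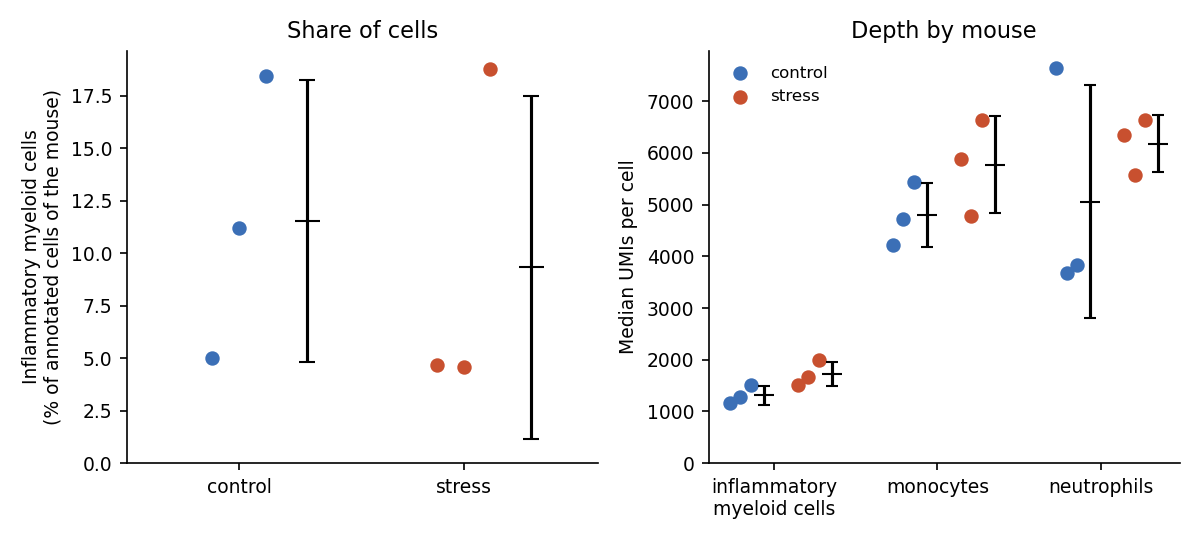
Left, inflammatory myeloid cells as a percentage of the annotated cells of each mouse; right, median UMIs per cell in each mouse for 3 cell classes. Points are mice and bars are mean ± SD (n = 3). Shares run from 4.57% to 18.8% with overlapping groups, and the class lies between 1156 and 1988 UMIs where monocytes lie between 4222 and 6646.

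The class carried the genes of mature neutrophils at levels far above monocytes, and those of monocytes and macrophages at levels below them. This is a description without a test, since the annotators' clusters were formed on these genes. S100a9, a calcium-binding alarmin of neutrophils and one of the label's markers, stood at 8997, 15321 and 12724 CPM in control mice and at 10695, 16704 and 21254 CPM in stress mice. Monocytes of the same 6 mice held between 16.9 and 221 CPM, far below in every mouse. Retnlg, a resistin-like secreted protein of neutrophils, was at 2707, 1809 and 3822 CPM in control and 1683, 1039 and 3053 CPM in stress mice, against at most 28.0 CPM in monocytes. G0s2, an inhibitor of the lipase that breaks down stored fat, was at 3091, 9643 and 5031 CPM and at 3469, 8962 and 10684 CPM, against at most 134 CPM in monocytes. Control mouse 1, the lowest control mouse for S100a9 with all cells, was the highest without deep cells. Without deep cells in either class, S100a9, Retnlg and G0s2 averaged 19014, 3423 and 9063 CPM, against 170, 15.1 and 66.3 CPM in monocytes. With all cells and on a scale of CPM + 10, these 3 genes were about 100-fold above monocytes: 104-fold for Retnlg, 102-fold for G0s2 and 100.2-fold for S100a9. Next in that order came Cstdc4 (64.6-fold) and Stfa2l1 (38.5-fold), both of the stefin and cystatin protease inhibitors, Hdc (36.8-fold), the enzyme that makes histamine, Asprv1 (35.7-fold), S100a8 (34.6-fold), the partner of S100a9, Il36g (31.2-fold), an IL-1 family cytokine, and Hcar2 (24.8-fold), a receptor for niacin and ketone bodies.

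Of the 18 mature neutrophil genes listed, all 18 had a higher mean in the class than in monocytes and 17 were higher in 6 of 6 mice, with a median of 11.3-fold. Against neutrophils, 10 of the 18 had a higher mean, 5 were lower in 6 of 6 mice and the median was 1.13-fold. S100a9 averaged 91115 CPM ± 30977 in neutrophils, above the class in every mouse, and S100a8 65384 CPM in neutrophils and 7496 in the class. Csf3r, the receptor for G-CSF, was at 224, 628 and 448 CPM in control mice and 281, 668 and 753 CPM in stress mice, between 27.6 and 48.3 CPM in monocytes, and between 21.4 and 197 CPM in neutrophils. Csf3r was thus higher in the class than in both other classes in every mouse, with 4 neutrophils behind the value of control mouse 1. Cxcr2, the receptor that draws neutrophils along CXC chemokines, averaged 154 CPM ± 70.1 (SD, n = 6) in the class, 2.25 ± 1.16 in monocytes and 151 ± 94.9 in neutrophils.

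The monocyte and macrophage lists ran the other way but were not at 0, as all 12 monocyte genes had UMIs in the class and summed to between 501 and 1663 CPM (354 to 1223 CPM without deep cells). Of the 15 macrophage genes, 10 had a higher mean than in neutrophils. None of the 12 monocyte genes and none of the 15 macrophage genes had a higher mean in the class than in monocytes, and 11 and 13 of them were lower in 6 of 6 mice. Csf1r, the receptor for the macrophage growth factor, was between 7.85 and 20.3 CPM in the class and between 122 and 207 CPM in monocytes. C1qa, a complement subunit of macrophages, averaged 5.77 CPM ± 4.05 against 799 ± 239 (n = 6). The genes furthest below monocytes were Arg1 (69.3-fold lower), which consumes arginine, Apoe (54.7-fold), C1qa (51.3-fold), H2-Aa (46.3-fold), a class II antigen-presenting chain, C1qc (45.2-fold) and C1qb (38.2-fold). H2-Eb1, H2-Ab1 and Cd74, also of class II presentation, and the elastase Mmp12 followed at between 33.0-fold and 36.2-fold lower. The monocyte class pools 3 clusters that were not read apart, so these folds are against the average of a mixed class.

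Against the cells annotated as neutrophils, the class had lower levels of secondary and tertiary granule genes, although 8 of the 15 were above monocytes in 6 of 6 mice. Neutrophils were few, with 4, 34 and 17 cells in the control group against 14, 49 and 57 in the stress group, so a comparison with them within a mouse can rest on a handful of cells. Camp (cathelicidin) was at 0.654, 16.7 and 0.319 CPM in control mice and 4.64, 434 and 89.2 CPM in stress mice, where neutrophils held between 10074 and 31568 CPM. The class was lower in every mouse, and its own values came from a few cells (see the comparison with monocytes at the end). Ngp, another secondary granule protein, was 210-fold lower on the CPM + 10 scale, Camp 193-fold and Ltf (lactoferrin) 53.2-fold. Without deep cells the first 2 changed order, with Camp at 13.6 CPM against 22743 in neutrophils and Ngp at 27.1 CPM against 18254. None of the 15 secondary and tertiary granule genes had a higher mean in the class than in neutrophils, 14 were lower in 6 of 6 mice, and the median was 0.0761 of the neutrophil level. Ly6g, the surface antigen used to sort mouse neutrophils, averaged 18.6 CPM ± 10.9 against 363 ± 195 (n = 6). Lyz2 (lysozyme), Cd177, Ly6c2 and Cybb, the catalytic subunit of the NADPH oxidase, were between 13.6-fold and 23.5-fold lower. The 6 primary granule genes found in the files gave summed levels of 9.02 to 15.3 CPM in control mice and of 5.80 to 1275 CPM in stress mice, the last from stress mouse 2, where 3 cells held all 512 UMIs of Elane (neutrophil elastase). Without deep cells the sum ran from 5.97 to 32.0 CPM over the 6 mice.

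Among the genes furthest above neutrophils were cytokine and chemokine genes. Of 14 chemokines, 12 had a higher mean than in neutrophils and 9 were higher in 6 of 6 mice. The same counts were 16 and 13 of 16 NF-kB genes, 18 and 10 of 18 hypoxia and glycolysis genes, and 15 and 12 of 16 immediate-early genes. Other lists were higher by mean but not mouse by mouse, with 12 and 2 of 12 heat shock genes, 11 and 4 of 11 dendritic cell markers, and 13 and 0 of 13 mitochondrial transcripts. Endothelial markers gave 7 and 4 of 7 and B cell markers 6 and 1 of 6. Only 1 of 8 T and NK cell markers and 0 of 8 proliferation genes had a higher mean. The share of all genes above neutrophils was not counted, so counts against neutrophils are not read as an excess of any list. For mt-Atp6 the class averaged 6307 CPM with all cells and 2853 CPM without its deep cells, against 4078 CPM in neutrophils with all of theirs. For mt-Co3 these values were 4191, 2046 and 2759 CPM. The class and neutrophils were not compared with deep cells left out of both. Ccl3, a CC chemokine and a label marker, was at 3315, 7815 and 5927 CPM in control mice and 8238, 5074 and 5459 CPM in stress mice, against 21.4 to 409 CPM in neutrophils and 388 to 848 CPM in monocytes. The class was above both in 6 of 6 mice. Cxcl2, the chemokine that binds Cxcr2, was at 22024, 35196 and 46056 CPM in control and 30100, 23979 and 28642 CPM in stress mice, so that 1 gene took on average 3.10% of the class's UMIs in a mouse. Monocytes held between 3599 and 9612 CPM of it and neutrophils between 450.1 and 6411 CPM, both below the class in every mouse. Without deep cells Cxcl2 averaged 43878 CPM in the class, and control mouse 1 was the highest control mouse instead of the lowest. Acod1, the enzyme that makes itaconate, averaged 2332 CPM ± 1273 in the class, 221 ± 88.0 in monocytes and 404 ± 237 in neutrophils (n = 6), and was highest in the class in 6 of 6 mice. On the CPM + 10 scale the genes leading over neutrophils were Ccl3 (24.9-fold), Ccrl2 (22.8-fold), a non-signaling chemerin receptor, Gadd45b (18.7-fold), Cxcl1 (16.5-fold), Clec4n (16.5-fold), Il23a (16.4-fold), Il1a (16.1-fold), Ccl4 (14.4-fold), Ptgs2 (13.5-fold), the inducible cyclooxygenase, Hcar2 (12.1-fold) and Cd274 (12.0-fold), which encodes PD-L1. Of the 20 genes listed from descriptions of tumor neutrophils, 19 had a higher mean than in neutrophils and 17 were higher in 6 of 6 mice, with a median of 5.83-fold. Against monocytes, 15 of the 20 had a higher mean and 12 were higher in 6 of 6 mice. Arg1, Spp1 and Vegfa of that list had a lower mean in the class than in monocytes.

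**Figure D2:**
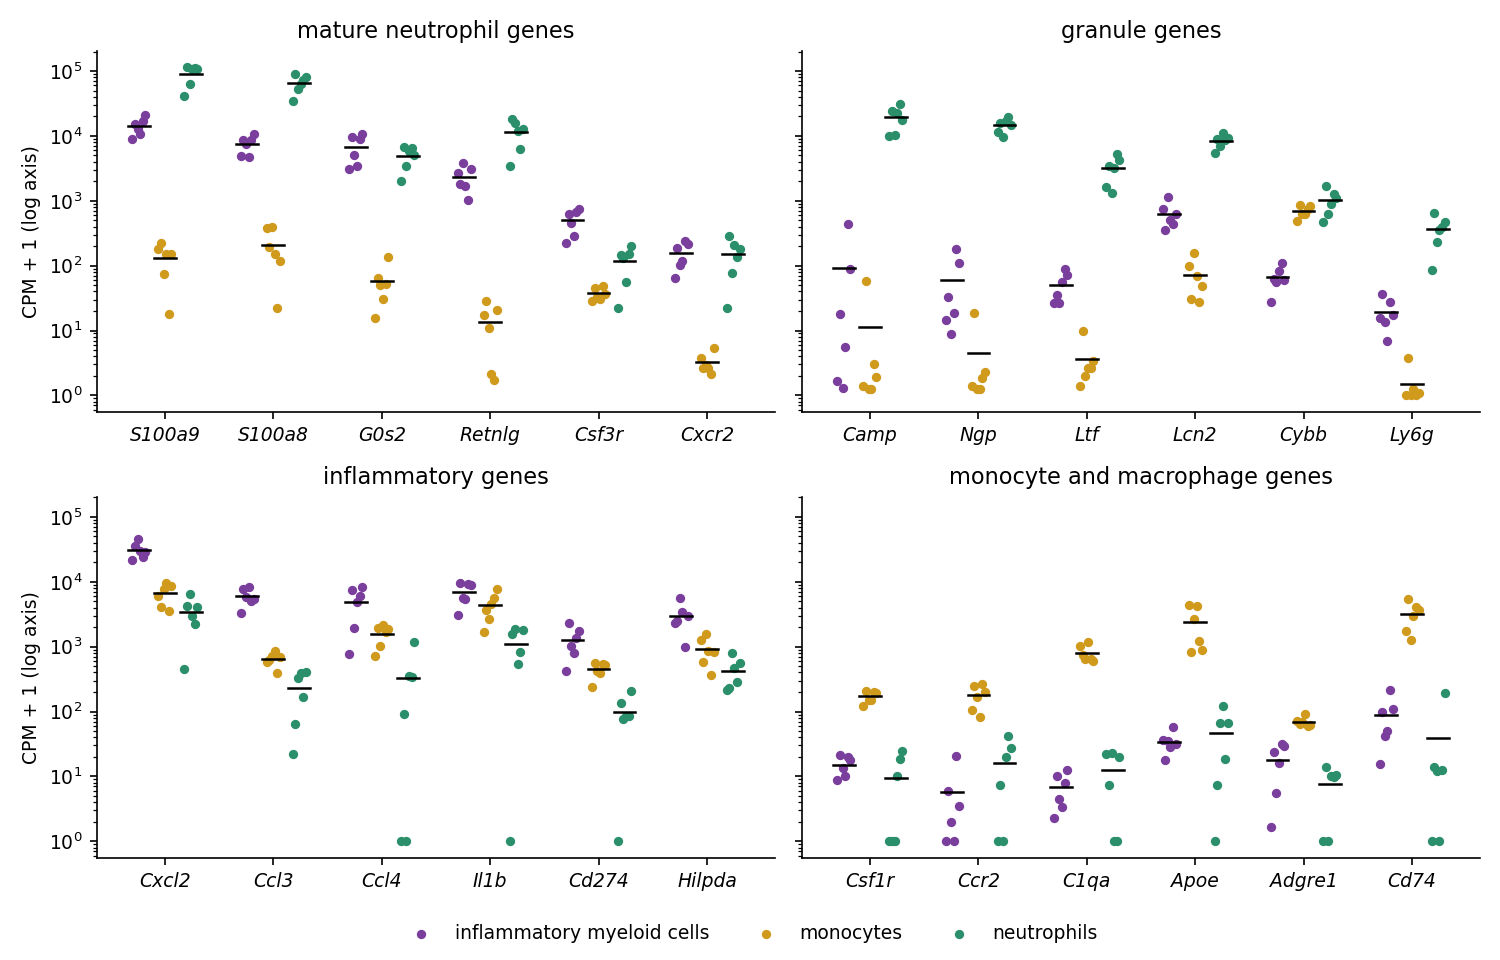
CPM + 1 on a log axis for 24 genes in inflammatory myeloid cells, monocytes and neutrophils; each point is 1 of 6 mice and each bar the mean. Mature neutrophil genes are far above monocytes, Camp, Ngp and Ltf are far below neutrophils, Ccl3 (mean 5971 CPM) is above both, and C1qa (mean 5.77 CPM) is far below monocytes.

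Each cell was then thinned to 500 UMIs, so that classes of different depth could be compared cell by cell; no cell of the 3 classes was too shallow for this. Cxcl2 was detected in 95.4% of the class, 61.7% of monocytes and 58.3% of neutrophils, S100a9 in 72.2%, 1.79% and 99.4%, and Ccl3 in 61.1%, 18.6% and 6.86%. Acod1 was detected in 57.6%, 10.6% and 20%, Retnlg in 40.3%, 0.351% and 73.1%, and Csf3r in 27.1%, 2.62% and 8%. In tumor cells and endothelial cells (ECs) of the same libraries, which should lack these genes (median 27716 and 4538 UMIs before thinning), the shares for these 6 genes were at most 2.11% and 4.16%, both for Cxcl2. Camp was detected in 0.301% of the class and Csf1r in 0.888%, against 0.0607% and 0.0810% of tumor cells. G0s2 was detected in 63.5% of the class and 79.4% of neutrophils, where its mean CPM ran the other way, so no order is read from it. Before thinning, 97.7% of the class had a UMI of Cxcl2 and 81.5% one of S100a9.

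Single cells of the class seldom held genes of both programs. After thinning, 90.2% of the class had a UMI of at least 1 mature neutrophil gene and none of 10 monocyte and macrophage genes (among them Csf1r, C1qa, Cd74 and Apoe). Both kinds were found in 8.34%, only the second in 0.0951% and neither in 1.40%. By mouse, the first share ran from 84.9% to 92.6%. In monocytes cells with both kinds were common. The same 4 shares were 10.1%, 39.4%, 42.3% and 8.24% in monocytes and 94.9%, 5.14%, 0% and 0% in neutrophils, of which there were 175. A UMI of any 1 of the 18 listed neutrophil genes sufficed, which is a loose rule. Monocytes often met it, although S100a9 was detected in 1.79% of them, Csf3r in 2.62% and S100a8 in 4.14%. These shares therefore do not separate cells that hold a neutrophil program from cells that lack it. Of 6 eosinophil markers, Epx and Prg2, which encode eosinophil granule proteins, had no UMI in the class. The other 4 had a higher mean than in monocytes, and the list summed to between 6.54 and 25.5 CPM. Mast cell and basophil markers summed to between 6.96 and 14.8 CPM.

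Of the 6 label markers, Cxcl2 and Acod1 are those whose promoter held a letter match described here, and these 2 promoters are printed from 250 to 51 bases before the RefSeq start (GRCm38.p6), 5′ to 3′ on the gene's strand. Capitals mark GGAATTTCC, a binding sequence of the inflammatory transcription factor NF-kB, found on either strand. The letters were chosen after these promoters had been read. The windows are chr5:90903649-90903848 for Cxcl2 and chr14:103046762-103046961 for Acod1, both on the plus strand.
Cxcl2: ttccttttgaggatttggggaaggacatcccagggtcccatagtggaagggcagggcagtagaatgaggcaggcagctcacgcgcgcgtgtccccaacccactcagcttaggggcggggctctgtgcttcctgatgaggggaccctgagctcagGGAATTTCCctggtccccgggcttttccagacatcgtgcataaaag
Acod1: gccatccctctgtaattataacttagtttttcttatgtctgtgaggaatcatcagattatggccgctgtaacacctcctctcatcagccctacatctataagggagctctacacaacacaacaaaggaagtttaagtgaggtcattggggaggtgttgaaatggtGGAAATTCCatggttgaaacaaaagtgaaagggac
The match began 96 bases before the start of Cxcl2 on the plus strand and 85 bases before that of Acod1, where it lies on the minus strand and reads GGAAATTCC on the printed strand. These letters occurred in 64 of 27025 windows of the same length in the promoter table (0.237%), and not in the windows of G0s2, Ccl3, Retnlg or S100a9. A match is a description of letters, not a binding site. In GENCODE M21 (GRCm38), the genes span chr5:90903871-90905938 (Cxcl2) and chr14:103046977-103056573 (Acod1).

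Cells within the class differed in how much of the neutrophil program they held. Within each mouse, cells thinned to 500 UMIs were ranked by their UMIs of S100a8, S100a9 and Retnlg and split into 3 groups of equal size (low, middle and high), and the other listed genes were read in each as CPM without those 3 genes. The groups are ranges of 1 measure, not cell types. Median UMIs of the 3 genes ran from 0 to 1 in the low groups and from 24 to 36 in the high groups. Cells of the high group were also deeper before thinning than those of the low group in every mouse. Their medians ran from 1205 to 2116.5 UMIs, against 1128.5 to 1815.5 in the low groups. The part of depth in the order of the groups was not tested. Of 238 listed genes at 50 CPM or more in the low or the high group, 59 were higher in the high than in the low group in 6 of 6 mice, and 28 were higher in none. Without deep cells these counts were 55 and 38.

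Most other mature neutrophil genes were higher where the ranking genes were high, as a description without a test. Of the 14 read, 11 were higher in the high than in the low group in 6 of 6 mice and none was lower in all. Of 12 secondary and tertiary granule genes, 7 were higher in 6 of 6 mice. Cybb went from 80.4 CPM in the low to 41.8 in the high group and was higher in 1 of 6 mice, Ltf in 2, Chil3 in 3 and Mmp9 in 4. G0s2 averaged 4541 CPM in the low, 8179 in the middle and 13192 in the high group, and went from 1878, 5517 and 2266 CPM to 13187, 17333 and 10720 CPM in the control mice. Cxcr2 averaged 102, 165 and 347 CPM, Csf3r 492, 622 and 1018 CPM, Lcn2, which binds bacterial iron carriers, 275, 570 and 1739 CPM, and Osm, an IL-6 family cytokine, 664, 1052 and 1820 CPM. Trem1, Fpr1, Mmp8, Stfa2l1 and Wfdc21 were also higher in 6 of 6 mice. Ngp was close to absent in the low group (1.77 CPM) and averaged 81.0 CPM in the high group, still far below the neutrophils' 14654 CPM. Ngp was seen in 45 of the 6307 thinned cells, and before thinning 1 cell held 244 of its 465 UMIs in stress mouse 3.

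Some chemokine, hypoxia and glycolysis genes had the opposite order. Of 17 hypoxia and glycolysis genes read, 9 were lower in the high group in 6 of 6 mice, none was higher in all, and Hif1a was higher in 5. Of 9 chemokines, 3 were lower in 6 of 6 mice, 5 went both ways and Ccl6 was higher in 6 of 6 (mean 2164 CPM in the low and 4376 in the high group). Hilpda, a lipid droplet protein induced by low oxygen, averaged 5262 CPM in the low, 4517 in the middle and 2486 in the high group, and was lower in the high group in 6 of 6 mice. Ccl3 averaged 9267, 9040 and 5807 CPM and Egr1, an immediate-early transcription factor, 2503, 2136 and 1507 CPM. Mif, Ero1a, Pgk1, Hk2, Aldoa, Vegfa, Bnip3, Cstb, Il1rn, Ccl4 and Gpnmb were lower in the high group in 6 of 6 mice as well. Cd274 (1777, 1762 and 1468 CPM) and Cxcl2 (41602, 45286 and 38930 CPM) did not go 1 way in all mice. In control mouse 1, 40 of its 47 deep cells fell in the low group, and the part of deep cells there was not tested beyond the counts without them.

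**Figure D3:**
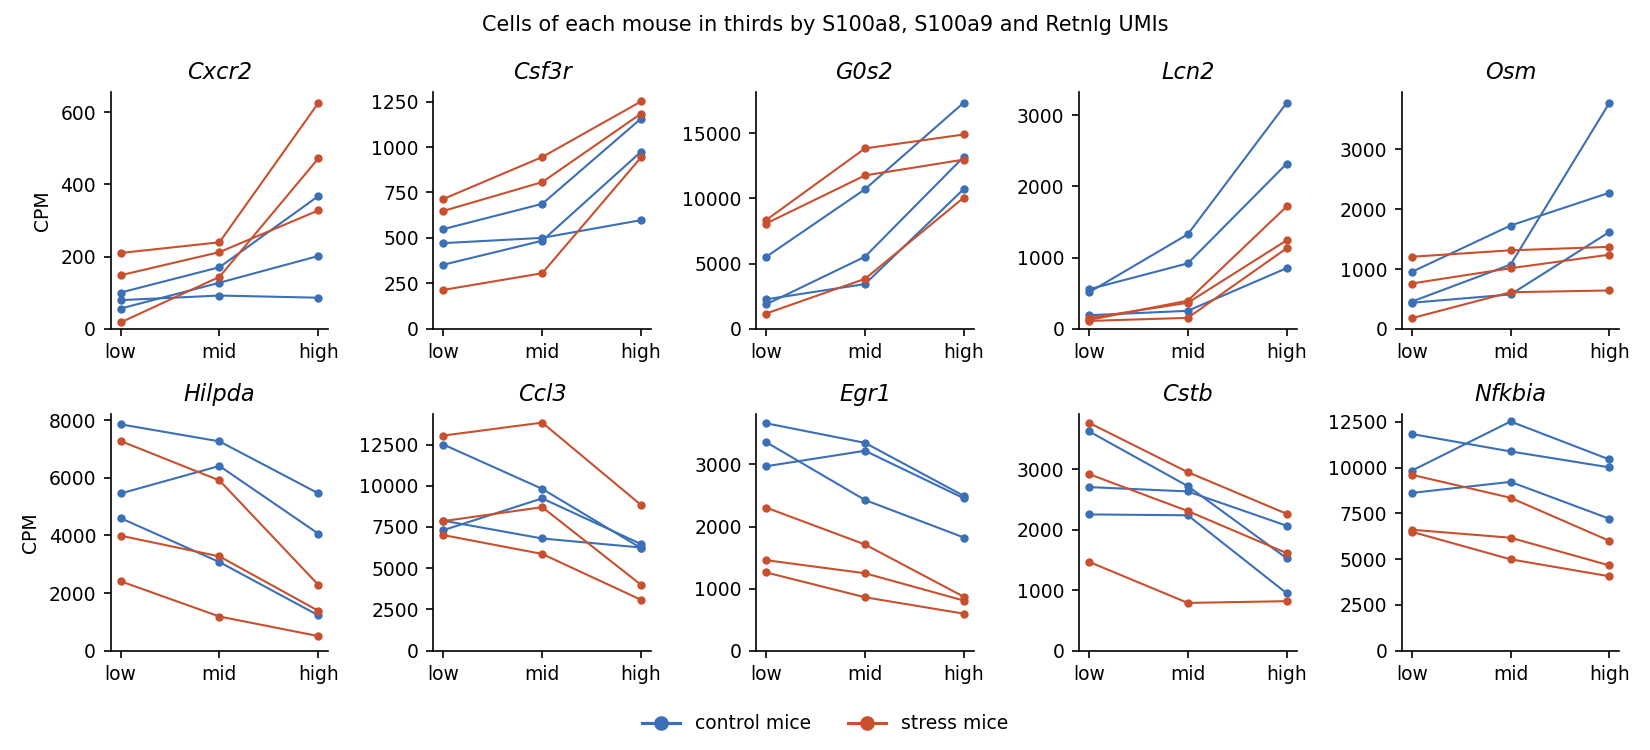
CPM of 10 genes in the low, middle and high group of cells ranked by UMIs of S100a8, S100a9 and Retnlg; each line is 1 of 6 mice. Csf3r, G0s2 and Lcn2 end higher in every mouse (G0s2 mean 4541 to 13192 CPM), and Hilpda, Ccl3, Egr1 and Cstb end lower in every mouse (Hilpda mean 5262 to 2486 CPM).

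The tumors were sequenced to learn how chronic stress bears on the progression of HCC. In the inflammatory myeloid cells, the genes that define the class did not separate stress from control mice, and a handful of transcripts were many-fold higher in stress mice. With all cells, edgeR's quasi-likelihood test on UMIs summed per mouse called 0 of 9219 genes at an adjusted p of 0.05 (0.0%), 365 genes (3.96%) were under an unadjusted p of 0.05, and DESeq2 called 5 of 20510 (0.0244%). Without deep cells, edgeR called 8 of 6496 genes (0.123%), 7 of them higher and 1 lower in stress mice, and 908 genes (14.0%) were under an unadjusted p of 0.05. Levels in the comparisons of stress and control mice are CPM after TMM scaling of the libraries, whose factors ran from 0.720 to 1.26 with all cells and from 0.935 to 1.06 without deep cells. Fold changes are stress against control on the log2 scale, with the standard error (SE) of the fit.

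Cmss1, which encodes a small ribosome-associated protein, stood at 86.3, 124 and 135 CPM in control mice and at 1207, 1874 and 2658 CPM in stress mice. The groups did not overlap, which held for 691 genes (7.5%) in either direction, 288 of them higher (3.12%) and 403 lower (4.37%) in stress mice, yet the log2 fold change of 4.05 (SE 0.57) had an adjusted p of 0.0857 with all cells. Without deep cells the levels were 122, 120 and 124 CPM against 1969, 2629 and 2122 CPM, and Cmss1 rose by 4.20 (SE 0.28, adjusted p = 0.000157). Cdk8, a kinase of the Mediator complex, had a log2 fold change of 3.82 (SE 0.51, adjusted p = 0.0857) and rose by 4.01 without deep cells (adjusted p = 0.000258). Gphn, the scaffold protein gephyrin, went from 3.66 (adjusted p = 0.122) to 3.89 (adjusted p = 0.000258), and Lars2, the mitochondrial leucyl-tRNA synthetase, from 3.64 (adjusted p = 0.122) to 3.78 (adjusted p = 0.000258). Camk1d, a calcium-dependent kinase, went from 2.69 (adjusted p = 0.425) to 2.70 (adjusted p = 0.0049). These 5 are the genes DESeq2 called with all cells. Before thinning, 18.9%, 14.7% and 17.5% of the cells in control mice had a UMI of Cmss1, and 88.1%, 95.4% and 93.1% in stress mice. After thinning to 500 UMIs the shares were 5.67%, 5.32% and 6.09% against 59.6%, 67.5% and 59.6%.

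The same 5 genes were among the 15 of 12251 that passed in monocytes (0.122%), with log2 fold changes of 3.29 for Cmss1, 2.79 for Cdk8, 2.68 for Gphn, 2.67 for Lars2 and 1.91 for Camk1d. Both classes came from the same libraries, and the 5 genes and Gm19951 had been listed because of earlier results of these data, so this is no independent support. Cells of other classes differed likewise. After thinning to 500 UMIs, Cmss1 was detected in 15% to 15.3% of endothelial cells in control mice and 65.9% to 79.4% in stress mice, and in 5.02% to 7.41% and 19.2% to 31.7% of tumor cells, beside the difference in software version. Gm19951, an unnamed gene model, overlapped between groups with all cells (87.4, 139 and 295 CPM against 236, 328 and 594 CPM) and had a log2 fold change of 1.15 (SE 0.56). Without deep cells its groups did not overlap (0.90, adjusted p = 0.238).

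The other calls without deep cells were mt-Nd4l and Cd36, which rose, and Plxdc2, which fell. mt-Nd4l, a mitochondrially encoded subunit of complex I, was at 10.4, 9.65 and 7.42 CPM in control mice and 90.8, 72.8 and 50.4 CPM in the stress group (log2 fold change 2.97, SE 0.34, adjusted p = 0.0049). Cd36, a scavenger receptor that takes up fatty acids, was at 3.48, 4.50 and 4.83 CPM against 53.3, 17.5 and 42.3 CPM (3.05, SE 0.46, adjusted p = 0.0421). The Cd36 values rest on few cells. With all cells, 5 cells of stress mouse 1 held 29 UMIs, 17 of them in 1 cell, and 1 cell held 47 of 162 UMIs in stress mouse 3. A UMI of Cd36 was found in 1.13%, 0.684% and 0.937% of the cells of control mice and 1.48%, 4.18% and 1.96% of those of stress mice. Plxdc2, a transmembrane protein, was at 291, 160 and 243 CPM against 67.1, 62.6 and 47.5 CPM (-1.99, SE 0.30, adjusted p = 0.0461). No mouse of one group reached the other group for any of the 3. With all cells the same genes had log2 fold changes of 1.66, 2.39 and -1.77 and adjusted p of 0.813, 0.425 and 0.813. Among other genes whose groups did not overlap with all cells, Rasgef1b (1.71), mt-Atp8 (1.66) and Ltf (1.49) had higher levels in stress mice, and Eno1b (-1.84), Wdr89 (-1.60), Rpl37rt (-1.57), Nudcd3 (-1.49), Cpeb1 (-1.44), Fam168a (-1.15), Mcrip1 (-1.14) and Dap (-1.07) lower ones. Without deep cells the groups of Ltf overlapped (0.76), and with all cells 1 cell held 45 of its 90 UMIs in stress mouse 2 and 1 cell 84 of 305 in stress mouse 3. None of these passed the adjustment (adjusted p between 0.813 and 0.994). Cdh13 (-1.63) was also among them, at 107, 35.4 and 32.6 CPM in control mice, but below 10 CPM in each mouse without deep cells.

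The 6 label markers overlapped between the groups, and each had an adjusted p of 0.994 with all cells. Cxcl2 was at 17831, 36813 and 49433 CPM in control mice and 27650, 22240 and 40210 CPM in the stress group (log2 fold change -0.21, SE 0.77). G0s2 was at 2502, 10086 and 5400 CPM against 3187, 8312 and 14999 CPM (0.56, SE 0.77). The other 4 had log2 fold changes of 0.58 (S100a9), 0.21 (Ccl3), -0.27 (Retnlg) and 0.94 (Acod1), with SE from 0.64 to 0.74. With SE of that size, changes of a similar size in either direction could not be resolved with 3 mice per group. Without deep cells the 6 values ran from -0.84 (Retnlg) to 0.71 (Acod1), again with overlapping groups.

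**Figure D4:**
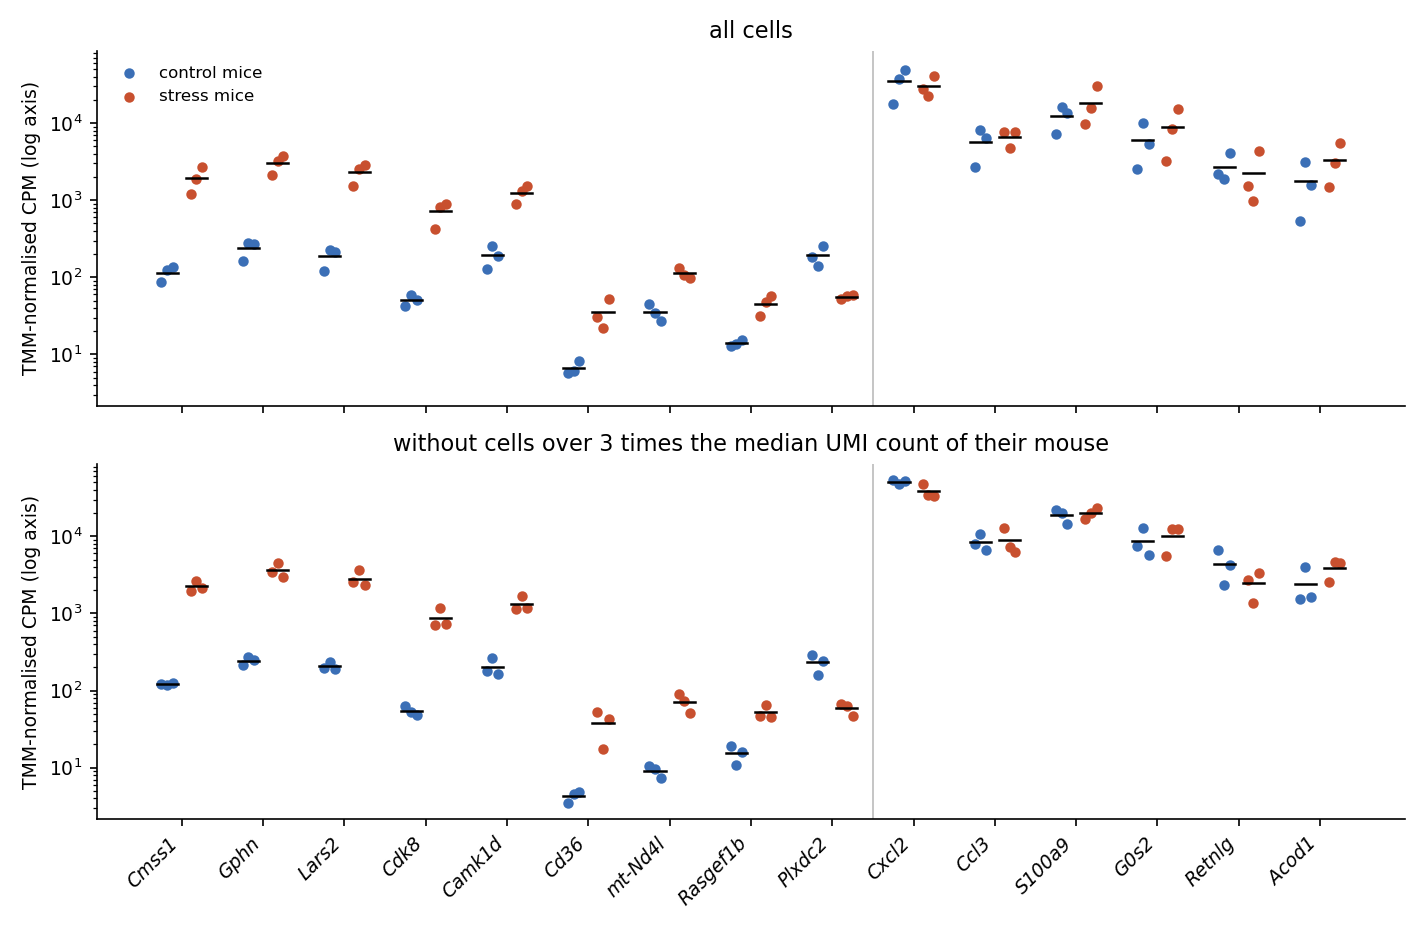
TMM-normalised CPM on a log axis for 15 genes in inflammatory myeloid cells, with all cells (top) and without deep cells (bottom); points are mice and bars the means of 3 mice. Cmss1, Gphn, Lars2, Cdk8 and Camk1d lie apart (Cmss1 86.3 to 135 against 1207 to 2658 CPM), and the label markers on the right overlap.

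Gene groups were described by the counts and the median log2 fold change of their members, beside -0.01 for all 9219 genes with all cells and -0.03 for all 6496 without deep cells. Except for the 5 transcripts above, mt-Nd4l and Cd36, no member of any list passed the adjustment in either fit. The counts at an unadjusted p of 0.05 stand beside 206 genes higher (2.23%) and 159 lower (1.72%) with all cells, and 404 higher (6.22%) and 504 lower (7.76%) without deep cells. Groups did not overlap for 508 genes higher (7.82%) and 670 lower (10.3%) without deep cells.

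Most NF-kB genes had log2 fold changes above 0, and Nfkbia did not. Of 16 NF-kB subunits, inhibitors and targets, 15 had a log2 fold change above 0 with all cells, where 48.7% of all genes did, and the median was 0.71 (0.47 without deep cells, 0.55 in monocytes). Without deep cells 14 of the 16 lay above 0, where 47.7% of all genes did, and 6 were higher and 1 lower at an unadjusted p of 0.05. Nfkb1, the p50 subunit, was at 277, 641 and 234 CPM in control mice and 914, 1761 and 1193 CPM in stress mice without deep cells (1.74, SE 0.42, unadjusted p = 0.00179, adjusted p = 0.207). Its inhibitor Nfkbie was at 33.1, 62.4 and 36 CPM against 109, 166 and 115 CPM (1.55, SE 0.32, adjusted p = 0.122). For both, every stress mouse lay above every control mouse. Rel (1.04), a further subunit, and the survival genes Bcl2a1b (1.29) and Bcl2a1d (1.42) did not overlap either, with adjusted p from 0.223 to 0.240. Bcl2a1b and Bcl2a1d are near-identical copies, so reads may be split between them. Nfkbia, the inhibitor that NF-kB itself induces, was at 11302, 9121 and 10478 CPM against 8471, 5024 and 6216 CPM (-0.65, SE 0.28, adjusted p = 0.344). The list's median with all cells was 0.12 without stress mouse 3.

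Immediate-early genes, which are switched on within minutes of a stimulus, had mostly log2 fold changes below 0, none past the adjustment. Of the 15 tested without deep cells, 2 lay above 0, 6 were lower and 1 higher at an unadjusted p of 0.05, and 8 were lower in every stress mouse than in every control mouse. The median was -0.49 without deep cells and -0.30 with all cells. Ier2 was at 1297, 623 and 1113 CPM in control mice and 306, 318 and 360 CPM in stress mice (-1.62, SE 0.31, adjusted p = 0.103). Egr1 was at 2741, 2720 and 3026 CPM against 1851, 852 and 1180 CPM (-1.13, SE 0.31, adjusted p = 0.223). Fos (-0.90), Dusp1 (-0.86) and Ier3 (-0.95) did not overlap either, and Fosb was higher in every stress mouse (0.82). With all cells the median was 0.01 without control mouse 3.

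Hypoxia and glycolysis genes had a median of -0.36 with all cells and -0.51 without deep cells, where 5 of 17 were lower and 1 higher at an unadjusted p of 0.05. Gapdh was at 2529, 1384 and 3011 CPM in control mice and 1279, 708 and 1194 CPM in stress mice (-1.12, SE 0.35, adjusted p = 0.240). Aldoa (-0.90) and Pkm (-0.71), enzymes of the same pathway, did not overlap between groups, and Hif1a, the transcription factor of the hypoxia response, was higher in every stress mouse (0.73, adjusted p = 0.307).

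Genes that answer glucocorticoids, the hormones of the stress axis, went in both directions. Of 16 tested, 2 were higher and 4 lower at an unadjusted p of 0.05 without deep cells, and the median was -0.19 with all cells and -0.47 without deep cells. Tsc22d3, a classical glucocorticoid target, was at 275, 160 and 411 CPM in control mice and 146, 102 and 132 CPM in stress mice with all cells (-1.15, SE 0.45, adjusted p = 0.994). These values did not overlap with all cells, but did without deep cells (-1.24, adjusted p = 0.242). Hsd11b1, the enzyme that regenerates active glucocorticoid, was at 33.4, 98.6 and 70.2 CPM against 76.8, 186 and 255 CPM (1.36, SE 0.53), which overlapped with all cells and not without deep cells (1.05, adjusted p = 0.230). The adrenergic and cAMP list also went both ways, with 6 of 11 above 0 with all cells, and 4 of 10 higher and 3 lower at an unadjusted p of 0.05 without deep cells. Its member Crem, a transcription factor induced by cAMP, had a log2 fold change of 1.41 (SE 0.51, adjusted p = 0.994).

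All 13 mitochondrially encoded transcripts had a log2 fold change above 0 in both fits, with a median of 0.68 with all cells, 1.34 without deep cells and 0.54 in monocytes. Without deep cells all 13 were under an unadjusted p of 0.05, and 10 were higher in every stress mouse. mt-Nd2 was at 195, 188 and 141 CPM in control mice and 797, 915 and 301 CPM in stress mice (1.94, SE 0.40, adjusted p = 0.115). The median mitochondrial share of a cell was 0.397%, 0.286% and 0.323% in control and 0.871%, 0.810% and 0.350% in stress mice, where stress mouse 3 lay inside the control range (exact permutation test, p = 0.2). Of the 12 heat shock genes, 11 had a log2 fold change above 0 (median 0.71 with all cells, 0.73 without deep cells). Hspa8 (1.06, adjusted p = 0.240) was higher in every stress mouse without deep cells.

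Receptors and cytokines of inflammation had medians above 0 and no member past the adjustment. The medians with all cells and without deep cells were 0.88 and 0.63 for chemoattractant receptors, 0.78 and 0.46 for the interleukin-1 family and inflammasome, and 0.60 and 0.33 for pattern recognition receptors, of which 14 of 14 tested lay above 0 with all cells. Ccr1 (0.77), Nlrp3 (0.69), Ptgs2 (0.85) and Irak3 (0.81) were higher in every stress mouse without deep cells, with adjusted p from 0.230 to 0.335. Without deep cells, 2 of 10 chemoattractant receptors were higher and none lower at an unadjusted p of 0.05, and Ltb4r1, a leukotriene receptor, was lower in every stress mouse (-0.54). In the interleukin-1 list 1 of 12 was higher and 1, the inflammasome adaptor Pycard (-1.62, groups overlapping), lower. Il1b overlapped (2523, 9947 and 6136 CPM against 5003, 8510 and 12590 CPM with all cells). The 18 mature neutrophil genes had a median of 0.45 with all cells and 0.14 without deep cells, with 1 member, Fpr2 (0.66), under an unadjusted p of 0.05.

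Markers of endothelial and dendritic cells had log2 fold changes above 0 as well. The 7 endothelial markers all had log2 fold changes above 0 (median 1.2, and 1.22 for the 5 tested without deep cells), with summed levels of 60.7 to 117 CPM in control and 51.1 to 209 CPM in stress mice (44.5 to 92.1 and 72.6 to 162 CPM without deep cells). The dendritic cell list, 11 genes of which Siglech had no UMI outside deep cells, summed to 62.2, 190 and 95.2 CPM in control mice and 186, 394 and 236 CPM in stress mice without deep cells, and its 5 tested genes had a median of 1.37 with all cells. H2-Eb1, of that list, had a log2 fold change of 2.11 (SE 0.70, adjusted p = 0.994). The part of such RNA in the differences above was not tested.

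**Figure D5:**
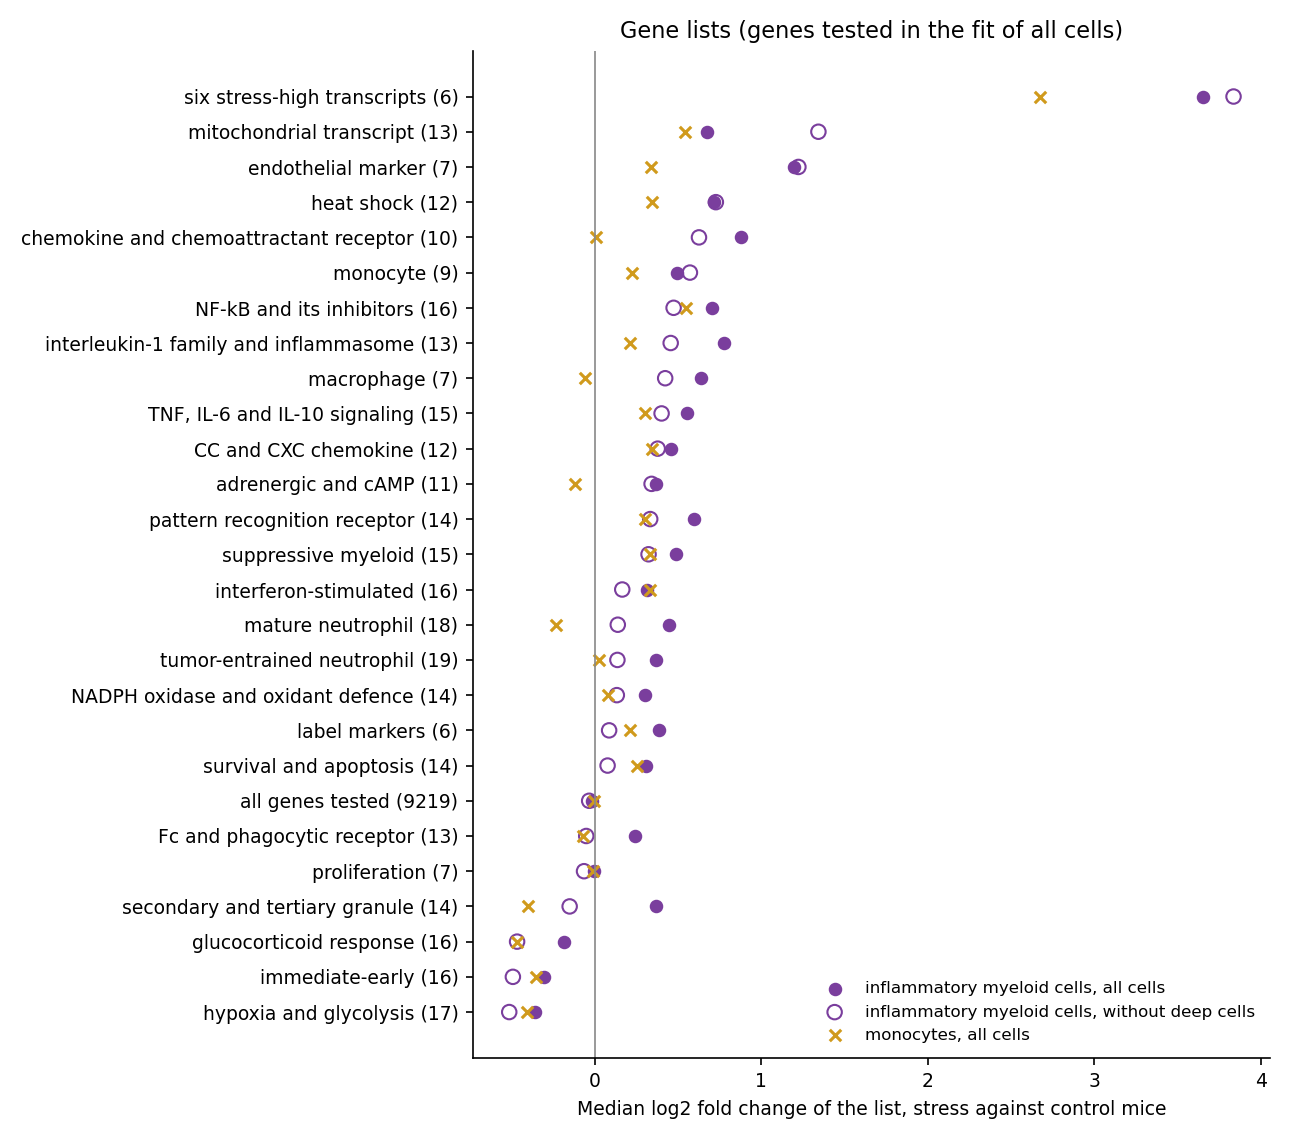
Median log2 fold change, stress against control mice, of each gene list with at least 5 genes tested both with all cells and without deep cells. Medians are shown for inflammatory myeloid cells in both fits and for monocytes. Apart from the listed stress-high transcripts (median 3.65), medians in the class lie between -0.51 and 1.34, and those of all genes tested at -0.01 and -0.03.

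Whether stress differed between the class and monocytes of the same mice was tested by an interaction, with the mouse as a block, so that a difference shared by both classes of a library cancels. Of 12637 genes, 1 was called (0.00791%), Camp, and 427 (3.38%) were under an unadjusted p of 0.05. The 5 stress-high transcripts of both classes had interaction values between 0.70 and 0.98 and an adjusted p of 1. Without deep cells, 2 of 11364 were called (0.0176%), Camp and Rasgef1b, and 798 (7.02%) were under an unadjusted p of 0.05. The mix within the monocyte class varied by mouse. Cd74, after thinning to 500 UMIs, was detected in 25.2%, 72.7% and 16.7% of monocytes in control mice. The stress mice had 44.8%, 62.4% and 59.0%. The part of this mix in the interaction, or in the depth ratio to monocytes, was not tested.

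Camp had an interaction of 8.57 (SE 0.69, adjusted p = 1.61e-05), and 7.35 (adjusted p = 0.000513) without deep cells. It rests on few cells. The class held 1, 37 and 1 UMIs of Camp in control mice, in 1, 4 and 1 cells, and 4, 440 and 387 UMIs in stress mice, in 2, 8 and 29 cells, of which single cells held 258 and 267. Monocytes held 55.1 CPM in control mouse 2 and at most 2.08 CPM in the other mice, and without control mouse 2 the value was 6.77 (adjusted p = 0.256). Within the class alone, Camp had a log2 fold change of 4.87 (SE 1.43, adjusted p = 0.994). Rasgef1b, a guanine nucleotide exchange factor, was at 12.7, 13.7 and 15.4 CPM in control mice and 32.0, 47.6 and 57.0 CPM in stress mice, and in monocytes at 188, 234 and 216 CPM and at 199, 114 and 108 CPM. The groups did not overlap in the class and overlapped in monocytes, and the interaction was 2.35 (SE 0.44, adjusted p = 0.245) with all cells and 2.70 (adjusted p = 0.0355) without deep cells. Ngp had an interaction of 4.82 (SE 0.82, adjusted p = 0.0986), 3.92 without deep cells (adjusted p = 0.626) and 2.17 without control mouse 2 (adjusted p = 0.865), and single cells held 49 of 71 UMIs in control mouse 2, 114 of 183 in stress mouse 2 and 244 of 465 in stress mouse 3. Further genes ranked by unadjusted p failed the adjustment as well (each adjusted p = 1), with Nr4a1 at 1.72 and Cd36 at 1.42, and Chrna9 (-2.75), Tmtc2 (-1.72), Aig1 (-1.52), Socs1 (-1.52) and Plxdc2 (-1.25) on the other side. Without deep cells the value of Aig1 turned to 0.33 (adjusted p = 0.926) and that of Cd36 was 2.42 (adjusted p = 0.105).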

How the data were processed

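For each of 6 libraries the authors deposited a matrix of UMI counts that had not been normalized, with a table of cell annotations for all, made with Cell Ranger on mm10 (9.0.0 in control and 7.1.0 in stress libraries per the file headers). By the study's methods, cells with few genes or many mitochondrial reads were removed, doublets called by Scrublet were removed and clusters were formed after Harmony integration in Seurat. Groups came from the sample labels, which read Con and Exp, with Exp taken as the study's stress group. Classes came from the deposited annotation, and no sample column was left unused (0). The members and gene lists (37 lists with 401 members) were chosen with earlier results of these data known.

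Counts were summed per mouse and class and tested in edgeR 4.0.16 (R 4.3.3, quasi-likelihood, filterByExpr, TMM, Benjamini-Hochberg adjusted p of 0.05). The interaction with monocytes had the mouse as a block. Alternatives were DESeq2 1.42.0, RLE scaling, no filter, 337 cells per mouse, thinning to 500 or 1000 UMIs, leaving out doublets or 1 mouse and a replicate block. Leaving out deep cells (over 3 times the median) was added after the data were seen. Folds between classes used mean CPM with 10 added. Named from the stress comparison were the 10 genes of each direction, and from the interaction the 5 of each sign, that passed or, where too few did, came first by p at a mean of 20 CPM or more (in the stress comparison also with groups that did not overlap), beside the label markers, the 15 leading genes per class contrast and listed genes that were called or most abundant. Other list members were named after their values were seen, mostly as those whose groups did not overlap. Shares and medians were compared by exact permutation tests in scipy 1.17.1, and cells were handled in scanpy 1.11.5 with Python 3.11.15. The edgeR stress comparison was tested on simulated counts, with an assumed spread between mice rather than the one measured here. Each mouse is 1 library, so p-values measure the spread between mice, and intervals of counts would cover counting error only.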

Additional observations from a re-analysis of the deposited data

Results flagged for a closer look

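The log2 stress difference of Camp, the secondary granule gene of cathelicidin, was larger in inflammatory myeloid cells than in monocytes by 8.57 (SE 0.69, adjusted p = 1.61e-05, edgeR interaction term), and this difference between the classes is what set it apart. Camp was at 0.530, 17.5 and 0.343 CPM in control and 4.26, 402 and 125 CPM in stress mice in the class, and single cells held 258 of 440 UMIs in stress mouse 2 and 267 of 387 in stress mouse 3. In monocytes, 1 cell held 446 of 500 UMIs. The value without control mouse 2 was 6.77 (adjusted p = 0.256), and that of cells thinned to 500 UMIs 6.67 (adjusted p = 0.0695).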

How the results depend on the processing

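The number of genes called between stress and control mice depended on the processing. It was 0 with all cells, with RLE scaling and with 337 cells per mouse, but 5 with DESeq2, 80 with no filter on low counts, 5 with cells thinned to 500 UMIs, 4 without called doublets, 8 without deep cells (an alternative added after the data were seen) and 9 with the replicate block. Leaving out 1 mouse at a time gave 0 calls each time, with 216 to 732 genes under an unadjusted p of 0.05. The replicate numbers were not taken as pairs, as they are not said to mark a shared batch. Deviations of log CPM from the group mean, gene by gene, correlated at 0.665, 0.0965 and 0.482 in same-numbered mice. The same-numbered stress mouse gave the highest value for controls 1 and 3, and control 2 correlated best with stress 3 (0.518). The interaction with monocytes called 1 gene, 3 with DESeq2, 12 with no filter, 2 thinned, 2 without deep cells and 1 to 4 with 1 mouse left out (4 without control 2). The difference in share, -2.23 points with and without the replicate block (sign-flip permutation p = 0.5), ran from -6.95 to 1.22 with 1 mouse left out, and turned positive without control 3 (1.22), stress 1 (0.109) or stress 2 (0.154). The difference in the depth ratio to monocytes was -0.0081 by means over cells, and the difference in median UMIs kept its sign with 1 mouse left out (273 to 508). By means over cells the difference in UMIs was 228 (exact permutation test, p = 0.6), with overlapping groups and control 1 the deepest mouse. Shares of cells with a UMI rose with depth, as 9 of 12 label marker shares moved by more than the spread between mice at 1000 UMIs or without thinning, and the share for Csf3r was 42.6% in the class, 4.36% in monocytes and 18.9% in neutrophils at 1000 UMIs. Thinning to 1000 UMIs left out 984 of the 6307 cells of the class, 89 of 6260 monocytes and 0 of 175 neutrophils. The share of the class at 1000 UMIs is therefore that of its deeper cells.

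Of the named genes, 10 values turned direction. No gene had passed with all cells, so no named gene could lose a call. The log2 fold change of Aig1 (-0.84) was 0.12 without called doublets and 1.05 without deep cells, and that of Tmtc2 (-0.10) was 0.26 without called doublets and between -0.42 and 0.20 with 1 mouse left out. With 1 mouse left out, G0s2 ran from -0.058 to 1.13, Ccl3 from -0.17 to 0.52, Retnlg from -1.13 to 0.14 and Cxcl2 from -0.57 to 0.12. The other 417 values for named genes kept direction and stayed without a call, and 39 newly passed. The cause of these changes was not tested. With 3 mice per group, 1 library each and few UMIs per cell, a gene without a call is not shown to be equal between the groups.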

Other observations

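Some interferon-stimulated genes were among those with the widest range over the 6 mice, which is how they were chosen. Levels here are CPM without TMM scaling and without deep cells. Isg15, a ubiquitin-like protein induced by interferon, was at 88.9, 1095 and 227 CPM in control mice and 351, 1031 and 605 CPM in stress mice. Gbp2, a GTPase induced by interferon gamma, was at 30.2, 767 and 96.3 CPM and at 90.2, 720 and 350 CPM. Rsad2, an antiviral enzyme, was at 55.1, 578 and 111 CPM and at 180, 413 and 306 CPM. Mouse 2 was the highest of each group for all 3 genes, and the groups overlapped. Of the same list, Ifi47 was at 23.1, 403 and 54.3 CPM and at 39.2, 207 and 94.5 CPM, with mouse 2 again the highest of each group. Cxcl10 was at 58.7, 526 and 105 CPM and at 335, 334 and 262 CPM, so stress mouse 1 was the highest of its group. The remaining members of the list are not described here. None of the 16 interferon-stimulated genes tested was under an unadjusted p of 0.05 between the groups.

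Chil3, a chitinase-like protein of neutrophils and macrophages, was at 1529, 24.2 and 1604 CPM in control and 326, 34.5 and 23.6 CPM in stress mice without deep cells (595, 24.4 and 1401 CPM and 198, 71.0 and 32.3 CPM with all cells), so control mouse 2 lay with the stress mice. The histone genes H1f2 (738, 95.6 and 662 CPM against 241, 142 and 76.1 CPM) and H4c9 (404, 43.1 and 255 CPM against 176, 66.1 and 35.6 CPM) were also high in control mice 1 and 3. These genes too were chosen for their range over the mice.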
